A study of Homo sapiens with 48 samples.

Results

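Cohesin and its regulators were followed through 10 genes in human lung fibroblasts that carry an inducible RAS oncogene. The members were the ring subunits SMC1A, SMC3, RAD21, STAG1 and STAG2, the loader NIPBL, the regulators WAPAL (an older symbol of WAPL), PDS5A and PDS5B, and CDCA5, which encodes sororin. They were taken by name from the 19509 entries of the count table that held counts, and all 10 were found, together with their exons and introns in the table of splicing events. The cells were IMR90 ER:RAS, foetal lung fibroblasts with an HRAS G12V protein fused to the oestrogen receptor, so that 4-hydroxytamoxifen (4OHT) switches RAS on and DMSO, the solvent, does not. All groups carried this construct. The cells received DMSO or 4OHT for 6 days, were then transfected with siRNAs and were harvested 2 days later in 0.5% serum. The siRNAs were non-targeting (siNT1, siNT2) or directed at the splicing factors SF3B1 (siSF3B1-13, siSF3B1-16) and RBM39 (siRBM39-06, siRBM39-08). The 48 libraries of polyadenylated RNA formed 6 groups of 8, each holding 2 siRNAs with 4 replicates per siRNA. The comparisons asked how RAS activation, and loss of each splicing factor with or without RAS, changed the amount and the splicing of these transcripts.

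Cohesin is a ring of SMC1A, SMC3 and the kleisin RAD21, to which either STAG1 or STAG2 binds. NIPBL loads the ring on chromatin and WAPL removes it. PDS5A and PDS5B bind the ring and take part both in its release and, with sororin, in its protection. The ring folds interphase chromatin into loops in every cell, whereas sororin is made in dividing cells, where it keeps replicated sister chromatids together until mitosis. SF3B1 is the part of the U2 particle that sits at the intron branch point, and RBM39 is an RNA-binding partner of the factors that recognise the end of the intron.

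Libraries held between 31467221 and 52734636 counts, with a median of 39656598. Both knockdowns were present in every library: SF3B1 was at most 34.9 CPM (counts scaled to library size) in the siSF3B1 groups and at least 223 in the others, and RBM39 was at most 30.8 CPM in the siRBM39 groups and at least 114 in the others. The 9 fibroblast markers were present in all groups and summed to at least 18240 CPM in each library. One library stood apart. The fourth replicate of siRBM39-08 in 4OHT correlated with its group mean at 0.939, against at least 0.98 for all other libraries. Its summed epithelial markers were 33.9 CPM against 2.05 to 5.14 in the other 7 libraries of its group, and its SF3B1 was 223 CPM against 405.5 to 442.5. It had the lowest level of its group for SMC1A, SMC3, RAD21, STAG1, STAG2, NIPBL, WAPAL, PDS5A and PDS5B, and the highest for CDCA5. The fits of siRBM39 in 4OHT were therefore repeated without it, and those values stand beside the others. The siRBM39-06 replicates in DMSO were also uneven. Replicates 1 and 3 held 47.6 and 62.0 CPM of NIPBL, against 83.1 and 87.4 in replicates 2 and 4. For STAG2 they held 74.8 and 69.7 CPM against 97.4 and 101.8. CDCA5 went the other way, at 8.05 and 7.35 CPM against 6.81 and 6.12. No fit left out these libraries alone.

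Sequences of 5 exons are shown first because each had the largest difference in inclusion after SF3B1 depletion among the exons of its gene that passed the test described later. Each is written 5′ to 3′ on the transcript strand, with the exon in capitals between 60 bases of the intron before it and 10 bases of the intron after it. They were read from GRCh37, after each exon was matched to the annotation by gene, exon length and both intron lengths. All 5 lie wholly within coding sequence.
PDS5B, 124-nt exon, chr13:33320055-33320248, plus strand: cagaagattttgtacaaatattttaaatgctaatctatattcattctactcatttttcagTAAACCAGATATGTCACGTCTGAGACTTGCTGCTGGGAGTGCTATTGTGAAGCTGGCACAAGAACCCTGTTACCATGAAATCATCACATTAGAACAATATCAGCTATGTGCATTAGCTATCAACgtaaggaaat
PDS5A, 98-nt exon, chr4:39927446-39927613, minus strand: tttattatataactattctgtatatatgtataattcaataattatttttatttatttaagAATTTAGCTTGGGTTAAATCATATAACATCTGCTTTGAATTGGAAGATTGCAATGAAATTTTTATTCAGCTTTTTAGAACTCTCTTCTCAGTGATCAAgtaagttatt
STAG1, 103-nt exon, chr3:136341978-136342150, minus strand: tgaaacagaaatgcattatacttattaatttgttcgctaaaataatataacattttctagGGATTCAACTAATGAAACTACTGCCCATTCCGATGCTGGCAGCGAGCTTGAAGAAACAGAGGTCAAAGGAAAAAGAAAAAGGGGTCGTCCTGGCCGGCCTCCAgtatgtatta
SMC3, 81-nt exon, chr10:112342260-112342410, plus strand: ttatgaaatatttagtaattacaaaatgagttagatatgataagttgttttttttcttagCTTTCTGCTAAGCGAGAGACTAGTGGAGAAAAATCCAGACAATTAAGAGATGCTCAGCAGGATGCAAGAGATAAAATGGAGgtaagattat
STAG2, 111-nt exon, chrX:123224644-123224824, plus strand: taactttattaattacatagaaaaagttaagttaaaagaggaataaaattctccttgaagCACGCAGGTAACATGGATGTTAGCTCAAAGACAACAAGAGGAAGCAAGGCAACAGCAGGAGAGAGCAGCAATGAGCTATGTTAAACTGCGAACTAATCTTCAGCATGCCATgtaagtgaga
The exons of PDS5B, PDS5A and STAG1 have lengths that 3 does not divide, so a transcript without them changes reading frame, and those of SMC3 and STAG2 keep the frame. In the 20 intronic bases that end 3 bases before the exon, 80.0% were pyrimidines for PDS5B, 70.0% for PDS5A and for SMC3, 50% for STAG1 and 45% for STAG2.

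Levels of different genes were compared as cRPKM, reads corrected for mappable length. In DMSO with siNT the order was RAD21 (37.9 ± 0.845, SD, n = 8), STAG2 (18.1 ± 0.751), SMC3 (17.6 ± 1.28), PDS5A (16.1 ± 0.906), STAG1 (13.1 ± 0.692), WAPAL (12.5 ± 0.787), SMC1A (9.11 ± 0.504), NIPBL (7.46 ± 0.670), PDS5B (5.59 ± 0.234) and CDCA5 (2.32 ± 0.356). STAG2 and SMC3, and likewise STAG1 and WAPAL, differed by less than the SD of at least one of the genes. All other neighbours lay further apart than either SD. In 4OHT with siNT, RAD21 was again the highest at 27 ± 0.482 and CDCA5 the lowest at 1.36 ± 0.119, while SMC3 was at 10.9 ± 0.495, close to SMC1A at 11.1 ± 0.206. Sororin was thus the member with the fewest reads. It had between 95 and 356 counts per library and 8917 over all libraries, whereas the other 9 genes had between 58783 and 245932.

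Activation of RAS lowered most of the cohesin genes and raised SMC1A and PDS5A. Of the 9 genes tested with the main filter of 10000 counts in total, 5 fell and 2 rose at an adjusted p under 0.05 (edgeR's quasi-likelihood test), beside 39.1% of all 9991 tested genes that fell and 39% that rose. The median log2 change was -0.42 over the members and 0.00 over all genes. At a fold of at least 1.5, 1 of the 9 was called, beside 37% of all genes. The summed fibroblast markers also moved with RAS, from 69990 to 80700 CPM in DMSO to 21090 to 21970 in 4OHT, and their part in these changes was not tested. Less RNA per cell and fewer cells that make it cannot be told apart in these bulk libraries. The study describes cells after 6 days of 4OHT as senescent. Every group carried the RAS construct, so effects of RAS, of 4OHT itself and of the senescent state cannot be told apart here.

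SMC3, a subunit of the ring core, changed most among these 9. In DMSO it ranged from 65.8 to 82.8 CPM with a median of 68.5, and in 4OHT from 41.2 to 46.4 with a median of 43.6. No 4OHT library reached the lowest DMSO library, and the log2 change was -0.68 ± 0.07 (SE; adjusted p = 3.29e-12). RAD21, the kleisin that closes the ring, had a median of 137 CPM in DMSO and 98.1 in 4OHT, with all 8 libraries lower and a log2 change of -0.48 ± 0.04 (adjusted p = 1.08e-15). SMC1A, the partner of SMC3, went the other way, from a median of 86.4 CPM (81.9 to 95.6) to 108 (103 to 109), again without overlap. Its log2 change was 0.30 ± 0.07 (adjusted p = 1.49e-04). So the SMC subunits of one ring moved in opposite directions.

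The STAG paralogs differed too. STAG1 fell from a median of 77.3 CPM to 58.2 with all 8 libraries lower (log2 change -0.42 ± 0.07, adjusted p = 7.45e-07). STAG2 did not pass the test, with medians of 91.6 and 90.8 CPM and a 95% interval of -0.19 to 0.14 for the log2 change. The loader NIPBL fell by 0.43 on the log2 scale (SE 0.12, adjusted p = 9.92e-04), from 69.7 to 92.1 CPM in DMSO to 53.5 to 61.6 in 4OHT. With siNT2 as the only control NIPBL did not pass (adjusted p = 0.0563). In 4OHT the titles name siNT1 for 4 control libraries and siNT2 for 4, but the treatment label names siNT1 for all 8, so which of these siRNAs the latter 4 received is in doubt, and with it every value for a single control siRNA that involves 4OHT. For WAPAL, which encodes the release factor, the interval was -0.05 to 0.20. PDS5B fell from a median of 40.5 CPM to 29.6 without overlap (-0.49 ± 0.11, adjusted p = 6.06e-05). Its paralog PDS5A rose from 111 to 130 CPM in the median, with 7 of 8 4OHT libraries above all DMSO libraries (0.22 ± 0.07, adjusted p = 7.34e-03), and did not pass with either siNT alone.

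CDCA5 was below the total of 10000 counts and was tested in a second fit that kept the 12145 genes with at least 5 counts in each library. In that fit 77.3% of genes were called in either direction for RAS activation. CDCA5 ranged from 4.75 to 7.15 CPM in DMSO (median 5.74) and from 2.95 to 3.75 in 4OHT (median 3.52). All 8 libraries with active RAS were below all 8 without it, and the log2 change was -0.72 ± 0.12 (adjusted p = 1.06e-06), the largest among the 10 genes. The siRNAs of the control group were not alike for CDCA5 in DMSO: the 4 siNT1 libraries held 6.21 to 7.15 CPM and the 4 siNT2 libraries 4.75 to 5.26. The summed level of 15 proliferation genes moved with it, from 324 to 409 CPM in DMSO to 144 to 152 in 4OHT, and the part of cell division in the fall of CDCA5 was not tested.

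**Figure D1:**
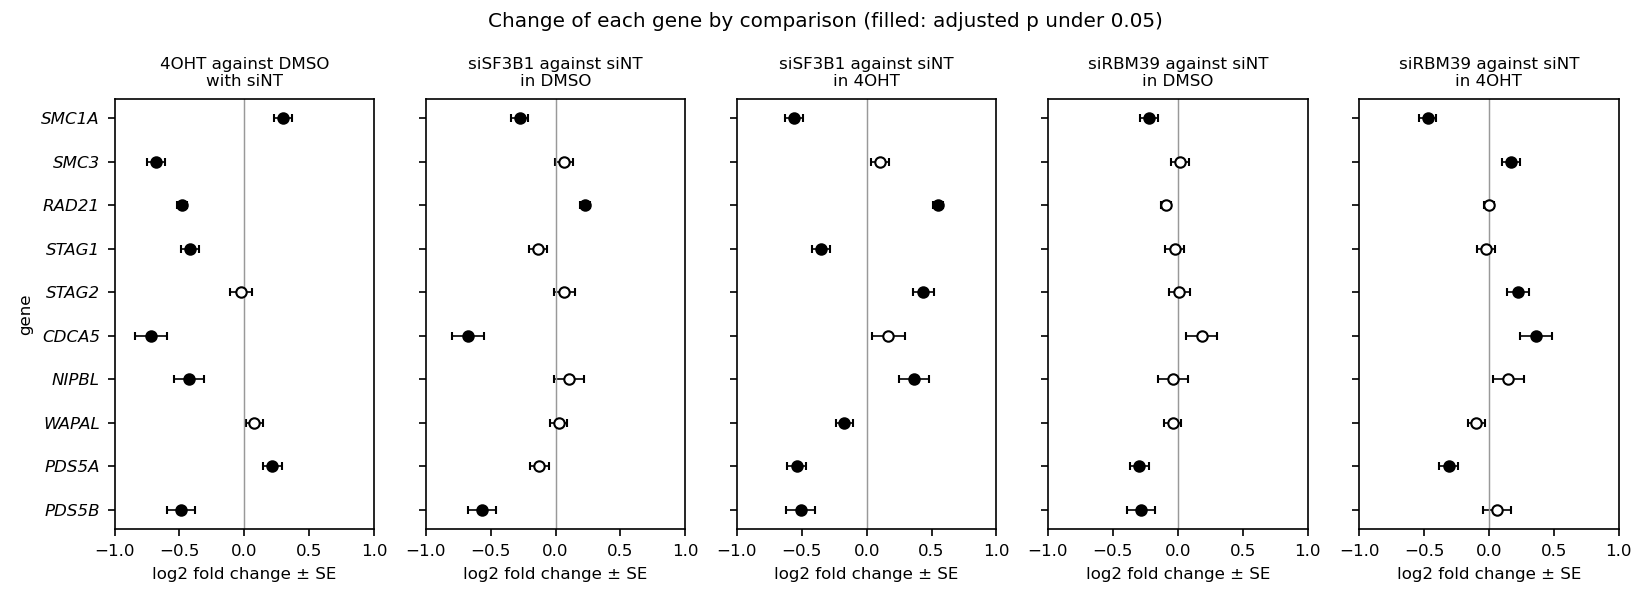
Log2 fold change of each gene (x axis) in the RAS comparison and the 4 knockdown comparisons, with bars of 1 SE; filled circles have an adjusted p under 0.05. SMC3 and CDCA5 are lowest in the RAS panel at -0.68 and -0.72, and RAD21 is at 0.55 in the panel of siSF3B1 in 4OHT.

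Depletion of SF3B1 changed 3 of the 9 genes in DMSO and 8 of 9 in 4OHT. In DMSO RAD21 rose, and SMC1A and PDS5B fell, beside 36.5% of all genes that rose and 36.2% that fell. In 4OHT RAD21, STAG2 and NIPBL rose, and SMC1A, STAG1, WAPAL, PDS5A and PDS5B fell, beside 39.4% and 37.6% of all genes. None of the 9 reached a fold of 1.5 in either treatment, whereas 25.7% of all genes did in DMSO and 31.8% in 4OHT. The median log2 change over the 9 was 0.02 in DMSO and -0.17 in 4OHT, beside 0.02 and 0.03 over all genes.

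RAD21 was the member that rose most. Its 8 siSF3B1 libraries held 154 to 168 CPM in DMSO against 132 to 143 with siNT (log2 change 0.23 ± 0.04, adjusted p = 1.24e-06). In 4OHT they held 138 to 154 against 96.5 to 101 (0.55 ± 0.04, adjusted p = 2.19e-17). No library overlapped in either treatment, and siSF3B1-13 and siSF3B1-16 alone gave 0.24 and 0.20 in DMSO and 0.58 and 0.52 in 4OHT.

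SMC1A fell in both treatments, with every siSF3B1 library below every siNT library. In DMSO it went from a median of 86.4 CPM to 71.2 (-0.28 ± 0.07, adjusted p = 4.03e-04), and in 4OHT from 108 to 73.0 (-0.56 ± 0.07, adjusted p = 6.03e-10). With siSF3B1-16 alone the DMSO change was -0.15 and did not pass (adjusted p = 0.0855). SMC3 did not pass in DMSO (0.07, interval -0.07 to 0.20) or in 4OHT (0.10, interval -0.04 to 0.24), with both siRNAs together. With siSF3B1-16 alone it was higher, by 0.19 (adjusted p = 0.0169) and 0.23 (adjusted p = 5.02e-03), and with siSF3B1-13 alone the values were -0.07 and -0.03 and did not pass.

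The STAG paralogs moved apart in 4OHT. STAG1 fell from 54.8 to 59.5 CPM with siNT to 40.9 to 50 with siSF3B1 (-0.35 ± 0.07, adjusted p = 2.18e-05). STAG2 rose from 86.3 to 95.1 CPM to 119 to 125 (0.44 ± 0.08, adjusted p = 9.08e-06). Neither set of libraries overlapped. In DMSO the changes were -0.14 for STAG1 (interval -0.27 to 0.00) and 0.07 for STAG2 (interval -0.10 to 0.23), and neither passed.

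PDS5B fell in both treatments and without overlap, from a median of 40.5 CPM to 27 in DMSO (-0.57 ± 0.11, adjusted p = 7.89e-06) and from 29.6 to 20.9 in 4OHT (-0.51 ± 0.11, adjusted p = 4.30e-05). The siRNAs differed in size here. In DMSO, siSF3B1-13 left 20.7 to 23.9 CPM and siSF3B1-16 left 30.1 to 35.5, and in 4OHT they left 15.2 to 17.9 and 24 to 24.8. Each siRNA alone passed in both treatments, with log2 changes of -0.86 and -0.33 in DMSO and of -0.82 and -0.25 in 4OHT. PDS5A fell in 4OHT, from 121 to 145 CPM to 81.8 to 99.5 (-0.54 ± 0.07, adjusted p = 9.29e-09). In DMSO its change was -0.13 (interval -0.27 to 0.02). NIPBL rose in 4OHT by 0.36 ± 0.12 (adjusted p = 4.83e-03), with 7 of 8 libraries above all siNT libraries, and did not pass with siNT1 as the only control. WAPAL fell there by 0.17 on the log2 scale (SE 0.07, adjusted p = 0.0159) and lost the call with siSF3B1-16 alone, with siNT2 alone and without replicate 2, with adjusted p values up to 0.202.

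CDCA5 fell after siSF3B1 in DMSO and did not pass in 4OHT. In DMSO its libraries went from a median of 5.74 CPM to 3.56 (2.67 to 4.77), with 7 of 8 below all siNT libraries (-0.67 ± 0.12, adjusted p = 4.81e-06). In 4OHT the medians were 3.52 and 3.82 CPM and the interval of the log2 change was -0.08 to 0.42. In the fit that holds CDCA5, 72.4% of genes were called in DMSO and 75.2% in 4OHT. With siSF3B1-13 the DMSO libraries held 2.67 to 3.48 CPM and with siSF3B1-16 3.63 to 4.77, and each passed alone (-0.91 and -0.46). The summed proliferation genes fell in DMSO from a median of 344 CPM to 218 and were 150 and 133 in 4OHT.

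Depletion of RBM39 changed 3 of the 9 genes in DMSO and 4 of 9 in 4OHT. In DMSO PDS5A, PDS5B and SMC1A fell and none of the 9 rose, beside 22.2% of all genes that fell and 23.9% that rose. In 4OHT SMC1A and PDS5A fell, and STAG2 and SMC3 rose, beside 24.3% and 32.2%. None of the 9 reached a fold of 1.5, against 6.63% of all genes in DMSO and 10.7% in 4OHT. Without the library that stood apart, NIPBL passed in 4OHT as well, at 0.25 ± 0.08 (adjusted p = 6.30e-03), so that 3 rose and 2 fell, beside 30.7% and 28.9% of all genes in that fit.

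SMC1A and PDS5A were the members that fell with RBM39 depletion in both treatments. PDS5A went from a median of 111 CPM to 97.1 in DMSO (-0.30 ± 0.07, adjusted p = 8.26e-04) and from 130 to 111 in 4OHT (-0.31 ± 0.07, adjusted p = 3.77e-04), with all 8 libraries lower each time. SMC1A went from 86.4 to 77.0 CPM in DMSO (-0.22 ± 0.07, adjusted p = 7.45e-03) and from 108 to 79.7 in 4OHT (-0.47 ± 0.07, adjusted p = 1.15e-07). The SMC1A call in DMSO was lost with siRBM39-08 alone, with siNT2 alone and without replicate 1 or 3. Without the library that stood apart, the changes in 4OHT were -0.42 for SMC1A and -0.25 for PDS5A, and both passed.

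PDS5B fell in DMSO (-0.28 ± 0.11, adjusted p = 0.0269), and all 8 libraries, at 27 to 37.2 CPM, were below the lowest siNT library at 38.9. It lost the call with either siNT alone and without replicate 1, 2 or 3. In 4OHT its log2 change was 0.06 (interval -0.15 to 0.27), and 0.12 without the library that stood apart. STAG2 in 4OHT was at 106 to 120 CPM in 7 libraries and at 54.6 in the odd one, against 86.3 to 95.1 with siNT. Its log2 change was 0.23 ± 0.08 (adjusted p = 0.020), or 0.31 ± 0.05 without that library (adjusted p = 4.43e-06). SMC3 had changes of 0.17 with it (adjusted p = 0.0320) and 0.21 without it (adjusted p = 4.15e-03). The STAG2 call was lost under 8 of 17 alternatives and the SMC3 call under 9 of 17. RAD21, STAG1 and WAPAL did not pass in either treatment, with intervals in 4OHT of -0.07 to 0.08, -0.16 to 0.12 and -0.23 to 0.03. In DMSO RAD21 came near, at -0.09 (interval -0.16 to -0.01, adjusted p = 0.0586). It passed there with DESeq2, with one mean per siRNA, with siRBM39-06 alone and without replicate 4. The DMSO intervals of STAG1 and WAPAL were -0.16 to 0.11 and -0.17 to 0.09. Without the odd library the changes of RAD21, STAG1 and WAPAL in 4OHT were 0.02, 0.04 and -0.04, and none passed.

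CDCA5 did not pass after siRBM39 in DMSO (0.19, interval -0.05 to 0.42), where 45.1% of genes were called in its fit. In 4OHT it passed at 0.37 ± 0.12 (adjusted p = 0.0123), beside 54.2% of genes. That call rested on 1 library: the library that stood apart held 8.09 CPM and the other 7 held 3.28 to 4.53. Without it the change was 0.21 ± 0.11 and did not pass (adjusted p = 0.0847). Its summed proliferation genes, at 172 CPM, were also the highest of the group.

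**Figure D2:**
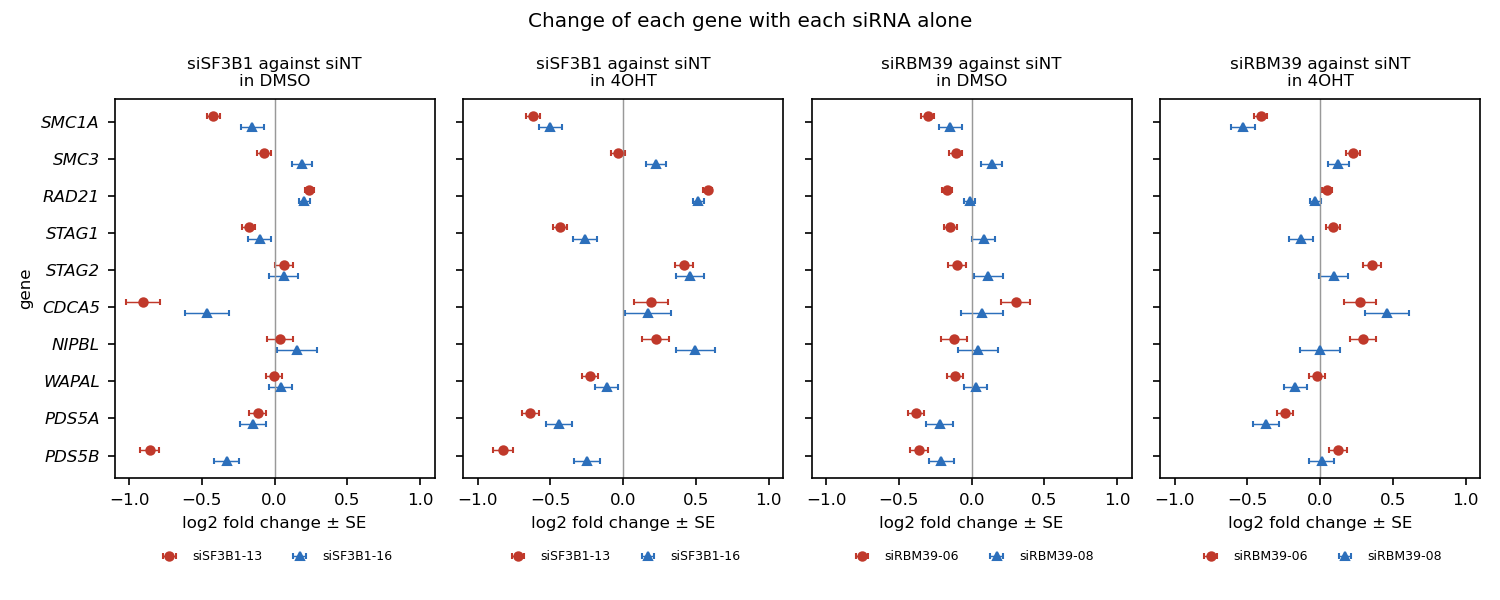
Log2 fold change of each gene (x axis, bars of 1 SE) with 1 siRNA at a time against both control siRNAs; red circles are siSF3B1-13 or siRBM39-06 and blue triangles siSF3B1-16 or siRBM39-08. For PDS5B after siSF3B1 in DMSO the siRNAs are at -0.86 and -0.33, and for RAD21 in 4OHT at 0.58 and 0.52.

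The knockdowns were also compared directly. RAD21 was higher with siSF3B1 than with siRBM39 in both treatments, by 0.31 ± 0.04 without RAS (adjusted p = 1.01e-09) and by 0.54 ± 0.04 with it (adjusted p = 4.40e-17), without overlap of libraries. Without the library that stood apart the RAD21 difference in 4OHT was 0.50. PDS5B had differences of -0.28 in DMSO and -0.57 in 4OHT, or -0.65 there without that library, and all 3 passed. The PDS5B call in DMSO was lost under 4 of 14 alternatives, with adjusted p values up to 0.306, and the 4OHT call under none of 15. CDCA5 was lower with siSF3B1 in DMSO (-0.86 ± 0.12, adjusted p = 3.95e-08), again without overlap, and did not pass in 4OHT. In all, 3 of 9 members were called in DMSO (2 higher, 1 lower, beside 33.6% and 34.1% of all genes) and 5 of 9 in 4OHT (2 higher, 3 lower, beside 33.7% and 37.7%). In the fit for CDCA5 66.8% of genes were called in DMSO and 69.7% in 4OHT. The PDS5A difference in DMSO (0.17) was lost under 4 of 14 alternatives and the one in 4OHT under 4 of 15. Without the library that stood apart, the STAG2 difference in 4OHT (0.21) was lost (0.11, adjusted p = 0.0552). SMC1A (-0.16 ± 0.05, adjusted p = 3.77e-03) and WAPAL (-0.15 ± 0.05, adjusted p = 3.22e-03) then were lower with siSF3B1, so that 6 of 9 members were called, 1 higher and 5 lower, beside 37.7% and 38.4% of all genes in that fit.

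Whether an effect of a knockdown depended on RAS was tested as an interaction. For SF3B1, 4 of the 9 genes passed: RAD21 (0.32 ± 0.05, adjusted p = 5.22e-06) and STAG2 (0.37 ± 0.12, adjusted p = 0.0117) had the more positive change in 4OHT, and PDS5A (-0.41 ± 0.10, adjusted p = 1.36e-03) and SMC1A (-0.28 ± 0.10, adjusted p = 0.0176) the more negative one. The background was 17.9% of all genes in the first direction and 19.9% in the second. CDCA5 had the largest interaction of the 10 genes, 0.84 ± 0.18 (adjusted p = 1.55e-04), in a fit where 36.9% of genes were called. RAD21 and CDCA5 kept the call in every alternative run. STAG2 lost it in 6 of 16 alternatives and SMC1A in 4 of 16, among them either siNT alone, and PDS5A lost it with siSF3B1-16 alone. For RBM39 no interaction passed among the 9, beside 7.28% and 6.87% of all genes, although 2 had an unadjusted p under 0.05 in edgeR and DESeq2 called 1. The siRNAs disagreed. With siRBM39-06 alone SMC3, RAD21, STAG1, STAG2, NIPBL and PDS5B passed, and with siRBM39-08 alone SMC1A did. With one mean per siRNA SMC1A and PDS5B passed. The shares of all genes in these fits are not given here. Without the library that stood apart 3 passed: STAG2 at 0.29 and PDS5B at 0.40, both more positive in 4OHT, and SMC1A at -0.20. In that fit 11.1% of all genes were called in the first direction and 14.2% in the second. CDCA5 did not pass (0.18, interval -0.16 to 0.52), beside 14.1%, nor without the library (0.03).

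Other genes of sister chromatid cohesion were followed as a list of 21, of which 9 passed the filter. After siSF3B1, 2 rose and 6 fell in DMSO, beside 36.5% and 36.2% of all genes, and 2 rose and 5 fell in 4OHT, beside 39.4% and 37.6%. The largest rise was CTCF, which encodes the factor that halts cohesin at loop boundaries, with a log2 change of 0.33 ± 0.03 in DMSO and 0.58 ± 0.03 in 4OHT (adjusted p = 4.64e-12 and 1.50e-20). The largest fall was PLK1, a mitotic kinase that helps to remove cohesin from chromosome arms, at -1.42 ± 0.14 in DMSO and -1.06 ± 0.17 in 4OHT. RAS activation lowered 6 of these 9 and raised none, beside 39.1% of all genes that fell and 39% that rose, with PLK1 again the largest at -2.32 ± 0.15 (adjusted p = 6.94e-19). After siRBM39, 2 fell and none rose in DMSO, beside 22.2% and 23.9%, and 2 fell and 1 rose in 4OHT, beside 24.3% and 32.2%. The largest fall was HDAC8, the SMC3 deacetylase, at -0.27 and -0.39, and the rise in 4OHT was CTCF at 0.25. In the fit without the odd library 2 fell and 2 rose in 4OHT, with HDAC8 at -0.45 and SGOL2, a protector of centromeric cohesin, at 0.29. The medians over the list were -0.35, -0.34, -0.05 and -0.04 for siSF3B1 in DMSO and 4OHT and siRBM39 in DMSO and 4OHT, and -0.20 for RAS.

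Condensin and the SMC5/6 complex, the other SMC machines, gave 12 of 14 genes over the filter. After siSF3B1 4 rose and 6 fell in DMSO, so 10 of 12 were called beside 36.5% of all genes higher and 36.2% lower, and 4 rose and 5 fell in 4OHT, beside 39.4% and 37.6%. The largest rises were SMC5 in DMSO at 0.65 and NDNL2 in 4OHT at 0.70, both of SMC5/6. SMC4, a condensin subunit, fell by 1.49 on the log2 scale in DMSO, and NSMCE4A, a subunit of SMC5/6, by 1.64 in 4OHT, so both fell further than any cohesin gene. RAS lowered 6 and raised 2, beside 39.1% and 39%, with SMC4 at -1.77 ± 0.10 and NCAPD3, of condensin, at 0.47 ± 0.10. After siRBM39 3 rose and 4 fell in DMSO, beside 23.9% and 22.2%, and 4 rose and 4 fell in 4OHT, beside 32.2% and 24.3%. NCAPD2, also of condensin, was the largest fall, at -0.84 in DMSO and -0.67 in 4OHT, and NSMCE1, of SMC5/6, the largest rise, at 0.52 and 0.73. When the odd library was left out 3 rose and 4 fell in 4OHT, with NCAPD2 at -0.65 and NSMCE1 at 0.43.

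Of the 15 proliferation genes 14 passed the filter. With RAS 13 fell and 1 rose (median -1.74), beside 39.1% and 39% of all genes. The largest fall was in MKI67, the antigen Ki-67 (-3.58), and the only rise in AURKA, a mitotic kinase (0.49). After siSF3B1 11 fell and 2 rose in DMSO (median -1.22), beside 36.2% and 36.5%, and 11 fell and 3 rose in 4OHT (median -0.76), beside 37.6% and 39.4%. TOP2A, the topoisomerase of dividing cells, fell furthest, at -3.14 and -2.18, and the largest rises were PCNA, the replication clamp, at 0.32 in DMSO and CENPF, a kinetochore protein, at 1.39 in 4OHT. After siRBM39 1 rose and none fell in DMSO (median -0.06), beside 23.9% and 22.2%, and PCNA was the one that rose, at 0.26. In 4OHT 3 rose and 2 fell (median -0.02), beside 32.2% and 24.3%, with CENPF at 0.70 and AURKA at -0.33. With the odd library left out 3 rose and 3 fell, with CENPF at 0.78 and CDC20, an activator of the anaphase ligase, at -0.50.

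Exon inclusion was taken as PSI, the percentage of junction reads that include an exon. The member genes had 278 exon events, of which 243 had a PSI in all 48 libraries. Only 15 passed the main rule, a coverage score above the lowest class in each library and a PSI range of at least 5 points. Among those, siSF3B1 lowered 1 exon in DMSO and 4 in 4OHT (adjusted p under 0.05 in limma and a difference of at least 5 points), beside 25.7% and 29% of 7673 exons. These were a STAG1 exon in both treatments (-6.04 and -8.37 points), and in 4OHT a second STAG1 exon (-6.92), a STAG2 exon (-6.68) and a PDS5A exon (-5.20). Neither siRBM39 comparison, RAS activation nor either interaction called a member exon, beside 7.22%, 8.21%, 1.60%, 0.613% and 0.0391% of all exons. At an unadjusted limma p under 0.05 there were 0 and 1 for siRBM39 in DMSO and 4OHT, 1 for RAS and 0 for both interactions.

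A wider set was tested under a rule chosen after the data were seen. It asked for a PSI in each library, at least 50 reads summed over each group and a PSI range of at least 5 points. The range was taken over all libraries, so an exon could enter through its change after siSF3B1. This held for members and for all other exons, and the shares called are shares of exons that varied. The set held 117 member exons among 34485. After siSF3B1, 17 of the 117 (14.5%) were lower in DMSO and 25 (21.4%) in 4OHT, and none was higher. Over all exons 19.6% and 24.3% were lower, so cohesin exons were not called more often than others. Together 30 exons were called, 12 of them in both treatments, which is 70.6% of the DMSO calls and 48% of the 4OHT calls. The calls fell on 9 genes: STAG1 had 5 in DMSO and 9 in 4OHT of 26 tested, PDS5A 2 and 5 of 20, PDS5B 3 and 3 of 12, NIPBL 2 and 3 of 10, SMC3 2 and 2 of 10, STAG2 1 and 2 of 10, SMC1A 1 and 0 of 14, WAPAL 1 and 0 of 11, and RAD21 0 and 1 of 4. The siRBM39 comparisons called 0 and 2 (beside 4.43% and 5.31%), and RAS and the interactions called none (beside 0.513%, 0.299% and 0.00580%). At an unadjusted limma p under 0.05 there were 4 for siRBM39 in DMSO, 5 for RAS, and 10 and 2 for the interactions of SF3B1 and RBM39.

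The 124-nt exon of PDS5B had the largest difference in DMSO among the exons that passed the test. With siNT it was included at 94.6% to 100% in DMSO and 92.0% to 100% in 4OHT. After siSF3B1 it ranged from 54.5% to 80.0% in DMSO (median 75.0%) and from 44.8% to 79.0% in 4OHT (median 67.9%). Every depleted library was below every control library, with differences of -25.5 points (adjusted p = 7.22e-07) and -33.2 points (adjusted p = 1.70e-08). Reads per library were 17 to 52 in the depleted groups, so single values are coarse. The means of siSF3B1-13 and siSF3B1-16 were 71.1% and 74.1% in DMSO and 63.3% and 66.8% in 4OHT. A 137-nt exon of PDS5B had differences of -22.1 and -28.5 points in DMSO and 4OHT.

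In PDS5A the 98-nt exon was at 100% in all 16 siNT libraries and in all siRBM39 libraries. It therefore had the range needed for the test only through the siSF3B1 libraries. After siSF3B1 it had a median of 86.9% in DMSO (68.1% to 100%) and of 61.2% in 4OHT (50.7% to 100%). Differences were -12.2 points (adjusted p = 4.54e-04) and -34.1 points (adjusted p = 4.15e-09), with 5 and 7 of 8 libraries below all controls. The limma fit shared one spread over all groups. Groups without spread made it smaller than that of the depleted libraries, so these p-values do not measure the spread among the latter. A 127-nt exon further along the transcript had differences of -6.84 and -19.9 points. The 103-nt exon of STAG1, with 24 to 116 reads in each depleted library, went from 93.3% to 100% with siNT in DMSO to 50.6% to 87.1% with siSF3B1 (-25.4 points, adjusted p = 2.51e-06), and from 93.9% to 100% to 54.3% to 92.0% in 4OHT (-24.7 points, adjusted p = 4.11e-08). Its libraries did not overlap in either treatment.

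SMC3 lost frame-keeping exons. The 81-nt exon was at 100% in all siNT and all siRBM39 libraries, so it too had the range needed for the test only through siSF3B1. After siSF3B1 it ranged from 64.6% to 94.0% in DMSO (-16.2 points, adjusted p = 2.30e-10) and from 49.3% to 100% in 4OHT (-21.2 points, adjusted p = 4.11e-11). The limma fit shared one spread over all groups, and those without spread made it smaller than that of the depleted libraries. A 39-nt exon of SMC3 was at 100% in all siNT libraries and had medians of 90% and 84.9% after siSF3B1 (-10.7 and -18.6 points). A 198-nt exon of NIPBL had differences of -12.9 and -20.4 points in DMSO and 4OHT (adjusted p = 5.63e-04 and 3.46e-06). The second largest differences of NIPBL and STAG1 were in a 109-nt exon (-10.2 points in 4OHT) and a 108-nt exon (-12.3 points in DMSO). Of the other genes, a 228-nt exon of WAPAL (-8.63 points) and a 138-nt exon of SMC1A (-7.26 points) were lower in DMSO, and a 130-nt exon of RAD21 (-6.31 points) in 4OHT.

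The 111-nt exon of STAG2 is an alternative exon, included in a minority of transcripts in control cells. It had medians of 31.7% in DMSO and 32.4% in 4OHT with siNT, and of 16.5% and 17% with siSF3B1. The differences were -16.8 points (adjusted p = 5.60e-04) and -12.3 points (adjusted p = 0.0120), with 7 and 6 of 8 libraries below all controls. With siRBM39 its medians were 20.6% and 27.9%, and it did not pass. A 65-nt exon of STAG2, named after its values were seen, fell short of the 50 reads in 1 group and was not tested. From summed reads it was at 37.5% and 42.2% with siNT, at 11.8% and 10.8% with siSF3B1 and at 13.8% and 10.7% with siRBM39, in DMSO and 4OHT.

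**Figure D3:**
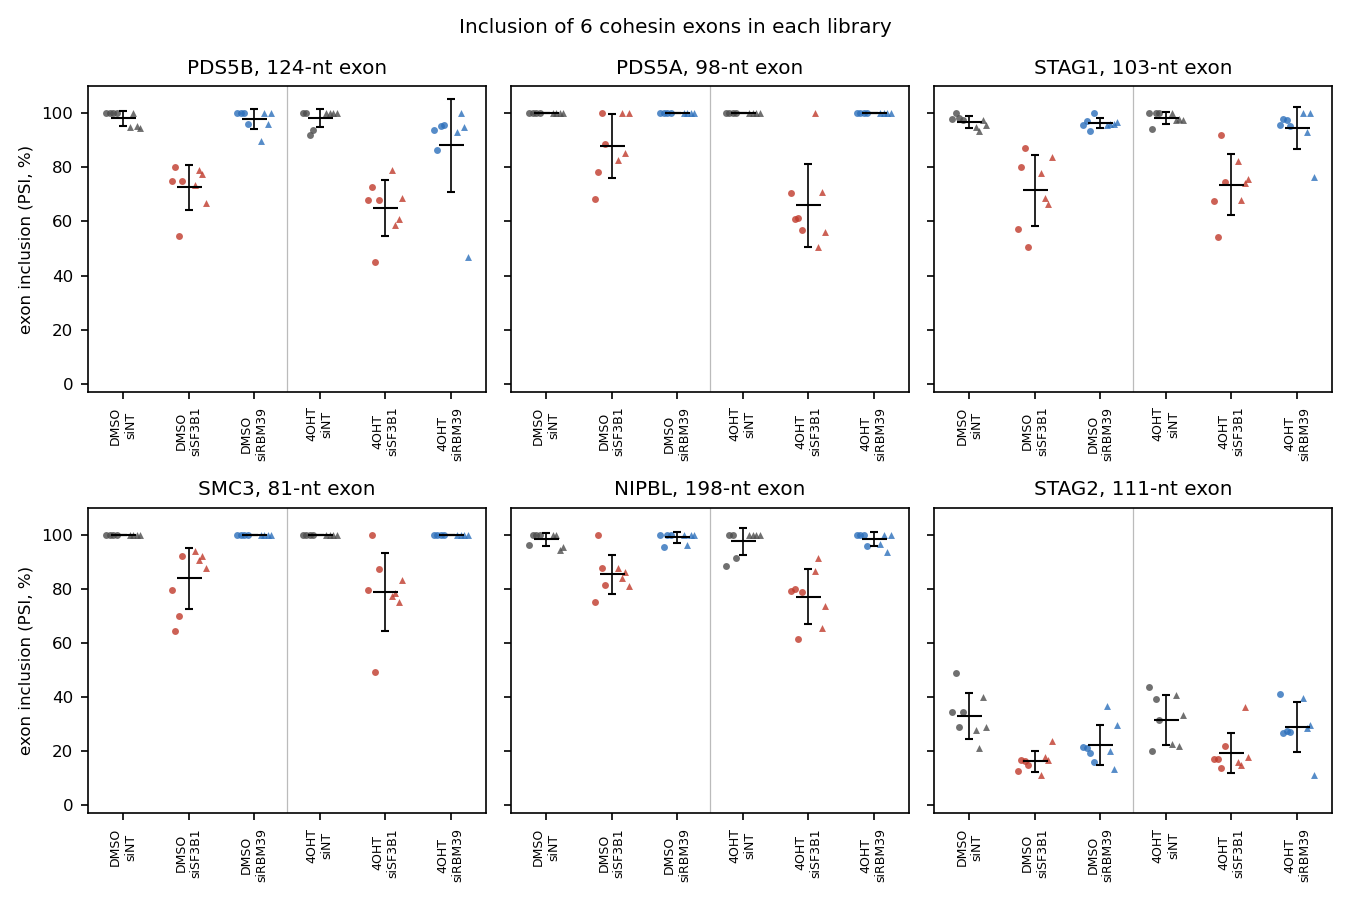
Inclusion of 6 exons in each library, as PSI in percent, with the mean and SD of 8 libraries; circles and triangles are the first and second siRNA of each group. In the 4OHT groups the PDS5B exon lies at 44.8% to 79.0% with siSF3B1 and at 92.0% to 100% with siNT, and the mean of the STAG2 exon is 31.6% with siNT and 19.3% with siSF3B1.

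Of the exons called after siRBM39 in 4OHT, the PDS5B exon of 124 nt (-10.1 points, adjusted p = 0.0149) rested on the library that stood apart, which was at 46.7% while the other 7 were at 86.2% to 100%. Without it the difference was -4.16 points and did not pass (adjusted p = 0.0630). The second, a 112-nt exon of STAG1, was at 85.8% to 96.8% in those 7 libraries and at 100% in all 8 siNT libraries of that treatment (-6.31 points, adjusted p = 6.17e-03, or -7.21 and 1.40e-03 without the odd library). Both were also lower after siSF3B1.

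Averaged over the 243 exons with complete values, inclusion was 89.4% ± 0.242 in DMSO and 89.5% ± 0.137 in 4OHT with siNT (SD over 8 libraries). It was 87.8% ± 0.446 and 86.9% ± 0.445 with siSF3B1, and 89.1% ± 0.163 and 89.0% ± 0.202 with siRBM39. The same average over 84733 exons of all genes was 87.6%, 87.5%, 85.4%, 84.8%, 86.9% and 86.7% in that order. Of the 117 exons, 102 were matched to the GRCh37 annotation. The 28 of them called after siSF3B1 had a median length of 111 nt and 70.0% pyrimidines (45% to 95%) before the exon, and the other 74 had 116 nt and 72.5% (50% to 95%). Lengths that 3 does not divide made up 42.9% of the called and 66.2% of the others. These are descriptions. Reads and the required PSI range limit which exons could be tested and called.

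Introns of the member genes showed little retention that could be tested. Of 253 introns 180 had complete values and 4 passed the main rule. None of the 4 was called in any of the 7 comparisons, beside 10.8%, 14.7%, 1.91% and 1.92% of 5248 introns that were higher in the 4 knockdown comparisons and 0.0953%, 0.0191% and 0% called for RAS and the interactions. At an unadjusted limma p under 0.05, 3, 2, 1 and 1 of the 4 were found in the knockdown comparisons and 0 in the others. Under the 50-read rule 43 introns were tested and 1 was called, a 2827-nt intron of PDS5B after siSF3B1 in 4OHT, at 0% in the 8 siNT libraries of that treatment and 0% to 33.3% after depletion, with 5 of 8 libraries above the controls (adjusted p = 8.89e-04). The backgrounds for that rule were 10.5%, 15.3%, 1.91%, 2.04%, 0.0396%, 0.0347% and 0.00496%. A 1588-nt intron of RAD21, named outside these rules, failed the balance of reads at its ends. It was tested under neither rule, and no share of all introns stands beside it. It went from 0% to 2.56% with siNT to 6.02% to 13.4% with siSF3B1 in DMSO, and from 0% to 5.56% to 5.66% to 17.9% in 4OHT.

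The splicing of CDCA5 could not be followed at this depth. Its 4 exons and 5 introns had no PSI in all libraries. From junction reads summed over each group, 15.8% and 5.72% of its introns were retained with siNT in DMSO and 4OHT, 13.0% and 12.2% with siSF3B1, and 15.3% and 13.8% with siRBM39, with 2.81 to 15.5 retention reads behind each value. Reads that skipped an exon summed to 7.06 with siSF3B1 in 4OHT, beside 74.9 that included one. They summed to 1.42 with siSF3B1 in DMSO, to 1.55 with siRBM39 in DMSO, and to 0 with siRBM39 in 4OHT and in both siNT groups. No test was made on them.

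The genes whose log2 level over the 48 libraries was most like that of CDCA5 were TACC3 (r = 0.903), GLTSCR2 (0.869), NFATC4 (0.865), H1FX (0.856) and OSBPL7 (0.854). For the other members the closest genes were NR1D2 for RAD21 (0.973), RANBP9 for STAG1 (0.966), ME2 for SMC1A (0.964), CALD1 for SMC3 (0.962), CHD6 for NIPBL (0.947), RAD17 for PDS5B (0.943), ZNF644 for STAG2 (0.936), RHOT1 for PDS5A (0.930) and SDCCAG1 for WAPAL (0.924). No member was the closest gene of another. The libraries fall into 6 groups and share depth and scaling, so these values mainly describe differences between groups.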

How the data were processed

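The authors aligned single-end reads with vast-tools version 2 against the VAST-DB annotation named hg19, merged lanes and kept replicates apart. They deposited raw counts per gene, cRPKM (RPKM over uniquely mappable positions) and, for each splicing event, PSI in percent with a coverage score and read numbers. A deposited table of scaled CPM was not used. Event coordinates were on GRCh38 despite the name, so none are printed, and exon sequences were read from GRCh37 after matching by gene and by exon and intron lengths. The groups followed the labels. For the 4OHT libraries whose title and treatment label name different non-targeting siRNAs, the title was used, which leaves the group unchanged but decides the values for a single control siRNA. The labels do not say that replicates were separate cultures, so p-values measure the spread between these libraries, which may be technical, and the 4 replicates of an siRNA share that siRNA.

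Genes with at least 10000 counts in total (9991) were fitted over all 6 groups with TMM scaling and edgeR 4.0.16 quasi-likelihood tests (R 4.3.3), with Benjamini-Hochberg adjustment over all of them. CDCA5 was tested in a second fit of genes with at least 5 counts in each library. CPM used TMM-scaled library sizes. Exons and introns were tested with limma 3.58.1 on logit PSI, for events scored above the lowest coverage class in all libraries, with a PSI range of at least 5 points and a balance p of 0.05 or more where the event was an intron. A call needed an adjusted p under 0.05 and a difference of at least 5 points. limma-voom, DESeq2 1.42.0, other filters, single siRNAs, single controls and left-out libraries were tried as alternatives. The gene and event tests were checked on simulated data. The totals per library, 31467221 to 52734636 counts, limit genes of low level such as CDCA5. The members, gene lists and tests were chosen with earlier results of these data known. All members are named, and of each other list, for RAS and each knockdown against siNT, the called gene with the largest rise and fall. Where many exons were called, those named are the 2 largest differences per gene.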

Additional observations from a re-analysis of the deposited data

Results flagged for a closer look

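Of 60 pairs of a gene and a group, 12 held a library far from the other 7 by Dixon's criterion, which chance meets in about 1 of 20. In 9 of the 12 this was the fourth replicate of siRBM39-08 in 4OHT. It held 48.95 CPM of SMC1A, 36.33 of SMC3, 34.22 of STAG1, 54.59 of STAG2, 24.87 of NIPBL, 47.47 of WAPAL, 62.99 of PDS5A and 18.83 of PDS5B, each the lowest of its group, and 8.091 CPM of CDCA5, the highest. Its total of 34283723 counts was the lowest of its group, where the others held 37979386 to 44920212, but within the range of all libraries. The first replicate of siNT1 in DMSO was the highest of its group for SMC3, at 82.79 CPM against 65.8 to 72.9, and for NIPBL, at 92.14 against 69.7 to 79.8. The fourth replicate of siSF3B1-13 in 4OHT was the highest for CDCA5, at 4.724 CPM against 3.31 to 3.97.

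The effect of SF3B1 depletion differed between 4OHT and DMSO, as tested by an interaction in edgeR, for 5 genes. The log2 difference between the effects was 0.8402 for CDCA5, 0.3684 for STAG2, 0.3213 for RAD21, -0.2848 for SMC1A and -0.4121 for PDS5A. Over all genes 17.9% were called with a positive difference and 19.9% with a negative one. In the fit that holds CDCA5 36.9% of genes were called. STAG2 kept the call in 10 of 16 alternatives, SMC1A in 12 of 16 and PDS5A in 15 of 16.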

How the results depend on the processing

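Of 1401 values of single genes under alternatives, 1279 kept direction and side of the threshold, 67 lost the call, 54 gained one and 1 turned: SMC3 after siRBM39 in DMSO was -0.11 with siRBM39-06 alone (adjusted p = 0.0401). Of 394 counts of calls, 323 stayed within 1.5 times. The causes of the others were not tested, except that stricter rules and fewer libraries call less by construction. CDCA5 after siSF3B1 in 4OHT passed with only the groups compared (adjusted p = 0.0417; range over its alternatives up to 0.595).

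Of 9 genes, with at least 1.5-fold 1 was called for RAS and 0 in all other comparisons. Over all genes that rule called 37% for RAS and 6.63% to 31.8% for the knockdowns against siNT. For most other alternatives the share of all genes called is not given here. The counts below therefore show only how the calls of members moved, and not how members compare with other genes. With only the groups compared, 5 were called for siSF3B1 in DMSO, 2 for siRBM39 in 4OHT, 7 for the SF3B1 interaction and 1 for the RBM39 interaction. With siRBM39-06 alone, 6 were called for siRBM39 in DMSO and 6 for the RBM39 interaction, and with siSF3B1-13 against siRBM39-06 5 in DMSO. With siRBM39-08 alone, 2 were called for siRBM39 in 4OHT and 1 for the RBM39 interaction, and with siSF3B1-16 against siRBM39-08 1 in DMSO. With siNT1 alone, 2 were called for siRBM39 in 4OHT and 2 for the SF3B1 interaction. With siNT2 alone, these were 2 and 2, with 1 for siRBM39 in DMSO. For the RBM39 interaction, DESeq2 called 1 and one mean per siRNA 2. Leaving out 1 replicate number, or the library that stood apart, gave 1 to 4 for siRBM39 in DMSO, 2 to 5 in 4OHT, 2 to 5 and 0 to 3 for the interactions of SF3B1 and RBM39, and 1 to 3 and 3 to 6 for siSF3B1 against siRBM39 in DMSO and 4OHT.

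Of 15 exons, siSF3B1 lowered 0 in DMSO and 0 in 4OHT with a coverage score of at least LOW (3 exons) or a difference of 10 points, 6 and 9 with no minimum difference, 2 and 7 with siSF3B1-13 alone, 0 and 2 with siSF3B1-16 alone, and 0 and 2 with siNT2 alone. Leaving out 1 replicate number gave 3 to 6 in 4OHT. With no minimum difference siRBM39 in 4OHT gave 1. For most of these alternatives the share of all exons or introns called is not given here, so the counts show only how member calls moved. The rule of at least 50 reads gave 17 and 25 exons for siSF3B1, 2 for siRBM39 in 4OHT and 1 intron. Introns after siSF3B1 were 1 and 1 with no balance filter, and 3 and 2 with no minimum difference. Under the 50-read rule siSF3B1 in DMSO gave 11 exons with siSF3B1-16 alone, 9 with siNT2 alone and 10 at 10 points, and 13 at 10 points in 4OHT. siRBM39 in DMSO gave 1 with siRBM39-06 alone and 1 with siNT1 alone. siRBM39 in 4OHT gave 0 with siRBM39-08 alone, 0 with siNT1 alone, 1 with siNT2 alone, 1 at 10 points and 0 to 2 without 1 replicate number or the library that stood apart.

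Replicate numbers did not pair the libraries: the median correlation of deviations between same-numbered libraries was 0.0123, 29.5% of such pairs were over 0.1, and 15 of 48 libraries correlated best with their own number. With the replicate block the counts were 3, 8, 3, 4 and 7 genes for siSF3B1 in DMSO and 4OHT, siRBM39 in DMSO and 4OHT, and RAS, and 17 and 26 exons for siSF3B1 under the 50-read rule. Single siRNAs, single controls and left-out replicates were not run for CDCA5 events, since no CDCA5 event had a PSI in all libraries. Reads per junction limit which exons could be tested.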
